A study of Mus musculus with 12 samples.

Results

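The 50 genes described here either supply cells with amino acids or are linked to the stress transcription factor ATF4. They were a list of gene symbols matched to the Ensembl identifiers of the count tables, 50 of the 41388 genes listed there, and all 50 were among the 13030 genes with enough counts to be tested. The list held 8 genes of serine synthesis and folate-bound carbon transfer, 10 of other amino acid synthesis and amino group transfer, 13 amino acid transporters, 7 genes of ATF4, its partners and stress targets, and 12 cytosolic tRNA synthetases. Counts came from RNA-seq of 12 libraries of bone marrow cells from C57BL/6 mice, 3 in each of 4 groups. KO_OC and KO_BMM came from ASXL2LysM mice, labelled as LysM Cre positive, in which Cre is driven by the myeloid lysozyme gene. The flox_OC and flox_BMM libraries came from ASXL2flox mice. Marrow of every group was grown for 5 days in alpha MEM with 10% FBS, trypsinized and replated, and then held for 2 days in 2% M-CSF with 50 ng/ml RANKL (OC, labelled osteoclast) or without it (BMM, bone marrow macrophages). No group carried Cre with intact Asxl2, so that effects of Cre and of Asxl2 loss cannot be told apart. Whether the 3 replicates of each group were separate mice or separate cultures is not given in the labels. The p-values therefore cover library-to-library spread alone, and part or all of that spread may be technical.

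ATF4 protein is made when a kinase phosphorylates the translation factor eIF2, for example when the kinase GCN2 (gene Eif2ak4) senses uncharged tRNA during amino acid shortage. Its production rises mainly through translation of its mRNA, so that Atf4 mRNA is a partial measure of it. ATF4 pairs with C/EBP proteins on a composite element and turns on amino acid transporters, Asns, the serine pathway and many tRNA synthetases. Osteoclasts form when macrophages exposed to RANKL fuse into large secretory cells, which draw heavily on amino acids for protein synthesis.

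Libraries held 18489873 to 21667237 counts, and the floor of 3 counts, the most that a count of 0 allows, corresponded to 0.138 to 0.162 CPM, a count scaled to library size. The common biological coefficient of variation was 2.54%. Chi-square per degree of freedom between libraries of a group was 1.25 to 2.10 outside flox_BMM and 2.88 to 5.43 within it, so flox_BMM was the most variable group. Asxl2 averaged 13.7 ± 1.24 CPM in KO_OC, 73.4 ± 2.27 in flox_OC, 15.1 ± 0.265 in KO_BMM and 93.1 ± 3.01 in flox_BMM (SD, n = 3 each). Asxl2 was thus low in every library labelled KO, in OC and in BMM. Lyz2, which carries the Cre, changed by 0.14 with genotype in OC and by -0.16 in BMM on the log2 scale. The 10 macrophage markers summed to 17260 to 17490 CPM in KO_OC, 16280 to 16690 in flox_OC, 31670 to 32480 in KO_BMM and 36010 to 37010 in flox_BMM. By genotype, 8 of 10 were lower and 2 higher in KO_BMM, while 3 were lower and 5 higher in KO_OC. Over all genes tested, 20.6% were lower and 19.3% higher in KO_BMM, and 19.9% lower and 21.4% higher in KO_OC. Osteoclast markers summed to 379 to 396 CPM in KO_OC, 743 to 765 in flox_OC, 206 to 209.9 in KO_BMM and 234 to 243 in flox_BMM, with Calcr at 0 in every group but flox_OC. Stromal and osteoblast markers summed to 55.2 to 65.8 CPM in KO_OC, 180.5 to 182.5 in flox_OC, 68.0 to 75.3 in KO_BMM and 214 to 234 in flox_BMM, and 9 of 9 tested were lower in KO in each condition. Megakaryocyte and platelet markers summed to 15.2 to 16.2 CPM in KO_OC, 134 to 140.5 in flox_OC, 48 to 52.1 in KO_BMM and 343 to 408 in flox_BMM, and 2 of 2 tested were lower in KO in each condition. Neutrophil markers summed to 10.1 to 11.8 CPM in KO_OC, 33.9 to 35.8 in flox_OC, 25.6 to 28.2 in KO_BMM and 78.0 to 82.2 in flox_BMM, with 4 of 4 tested lower in KO in each condition and Ly6g at 0 in every group. In these bulk libraries, fewer cells of a type and less RNA per cell cannot be told apart.

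The promoters were searched for TGATGNAA, the C/EBP-ATF composite element, on both strands (TTNCATCA on the other). Windows reached from 250 bases before to 50 bases after each start in the RefSeq annotation of GRCm38.p6. Of 32851 windows of all genes, 3.97% held the element and 0.895% held it with C at the open base (TGATGCAA). A window was found for 41 of the 50 genes, and 14 of their 50 windows (28%) held the element and 11 (22%) its TGATGCAA form. Links to ATF4 were part of how the list was chosen, so this share is not independent of the choice of genes. The 13 genes with a match were Slc7a7, Slc7a11, Chac1, Asns, Iars, Yars, Slc1a4, Pycr1, Tars, Trib3, Aars, Gars and Got1. Below are the windows of the 6 among them that changed most with RANKL or genotype, lower case 5′ to 3′ on the gene's strand with the element in capitals. They are shown to set the element beside genes that moved in different ways.
Slc7a11, chr3:50443564-50443863, minus strand, matches beginning 66 and 47 bases before the start: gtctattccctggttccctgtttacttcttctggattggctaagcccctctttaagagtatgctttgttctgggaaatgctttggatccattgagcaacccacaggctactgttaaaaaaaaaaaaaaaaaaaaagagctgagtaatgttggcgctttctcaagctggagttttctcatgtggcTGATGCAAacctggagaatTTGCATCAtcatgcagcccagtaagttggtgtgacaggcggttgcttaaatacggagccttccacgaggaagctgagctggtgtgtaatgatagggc
Chac1, chr2:119350992-119351291, plus strand, 193 bases before: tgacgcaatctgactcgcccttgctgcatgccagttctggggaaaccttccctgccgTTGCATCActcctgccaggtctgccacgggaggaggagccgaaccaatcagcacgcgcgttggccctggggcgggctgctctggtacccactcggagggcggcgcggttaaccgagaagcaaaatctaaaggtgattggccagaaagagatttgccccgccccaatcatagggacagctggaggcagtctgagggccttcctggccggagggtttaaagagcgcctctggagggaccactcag
Asns, chr6:7693160-7693459, minus strand, 23 bases before: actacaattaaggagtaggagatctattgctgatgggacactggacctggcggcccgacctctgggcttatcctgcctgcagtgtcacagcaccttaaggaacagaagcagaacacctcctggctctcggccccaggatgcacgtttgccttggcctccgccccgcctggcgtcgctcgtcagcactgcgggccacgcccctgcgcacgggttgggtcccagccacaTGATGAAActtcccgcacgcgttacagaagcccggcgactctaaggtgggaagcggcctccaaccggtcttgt
Iars, chr13:49681880-49682179, plus strand, 7 bases after: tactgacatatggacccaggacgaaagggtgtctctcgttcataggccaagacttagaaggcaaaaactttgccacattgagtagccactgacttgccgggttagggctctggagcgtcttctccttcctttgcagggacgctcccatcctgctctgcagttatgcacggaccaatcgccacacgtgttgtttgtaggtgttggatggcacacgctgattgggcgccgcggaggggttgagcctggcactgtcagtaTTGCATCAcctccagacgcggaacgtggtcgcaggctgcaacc
Yars, chr4:129189653-129189952, plus strand, 3 bases after: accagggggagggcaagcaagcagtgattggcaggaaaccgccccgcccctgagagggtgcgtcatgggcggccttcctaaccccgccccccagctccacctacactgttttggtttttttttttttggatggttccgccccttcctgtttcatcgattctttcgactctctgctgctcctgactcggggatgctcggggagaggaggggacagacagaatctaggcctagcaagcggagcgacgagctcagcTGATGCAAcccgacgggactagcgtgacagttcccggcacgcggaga
Slc7a7, chr14:54417895-54418194, minus strand, 141 and 1 bases before: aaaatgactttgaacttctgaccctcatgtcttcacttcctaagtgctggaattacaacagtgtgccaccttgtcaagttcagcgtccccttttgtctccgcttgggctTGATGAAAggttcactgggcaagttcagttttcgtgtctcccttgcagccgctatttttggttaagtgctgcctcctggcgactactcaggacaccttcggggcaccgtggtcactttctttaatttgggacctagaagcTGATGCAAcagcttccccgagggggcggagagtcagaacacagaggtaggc
Slc7a11 carried a pair of elements in opposite orientation, and Asns the TGATGAAA form. Both RefSeq starts of Slc7a7 lie upstream of the gene model counted, and the window of the other one, chr14:54417653-54417952, overlaps the one shown and holds 1 of its elements. Of the 13 genes with a match, 10 rose with RANKL and 2 fell in KO cells, where 35.5% of all genes were higher and 35% lower. In flox cells 8 rose and 3 fell, where 37% of all genes were higher and 37.8% lower. Over the whole list of 50 genes, 38 rose and 10 fell in KO cells, and 36 rose and 9 fell in flox cells. The genes with a match thus did not stand out from the list they came from. A match is a string of letters and not a bound site.

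RANKL raised most of the list in both genotypes. In KO cells 38 of the 50 genes rose, 10 fell and 2 did not pass. That is 96% called against 70.5% of all genes tested (35.5% higher and 35% lower), and the median log2 fold change was 0.62 against 0.002 over all genes. In flox cells 36 rose, 9 fell and 5 did not pass, 90% against 74.8% of all genes (37% higher and 37.8% lower), with a median of 0.62 against -0.004. Changes of at least 2-fold were called for 15 genes in KO cells (30% against 13.9% of all genes) and 18 in flox cells (36% against 17.4%). Both comparisons are edgeR quasi-likelihood tests with a Benjamini-Hochberg adjusted p under 0.05. The OC and BMM libraries did not overlap for 48 of the 50 genes in KO cells, against 73.4% of all genes tested. In flox cells they did not overlap for 46 of the 50, against 75.2%. The 2 comparisons set different libraries against each other, but both took their spread from 1 fit of all 12. In both, 36 genes (72%, against 31% of all genes) rose and 8 (16%, against 31.4%) fell. With scaling by library size alone the median of all genes moved to 0.14 in KO and 0.16 in flox cells, and called genes were higher in 63.5% and 62.8% against 50.4% and 49.5%. The members' counts were then 39 and 10 in KO and 39 and 6 in flox cells.

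Genotype moved the list less and in both directions. In KO_OC against flox_OC, 10 genes were higher, 13 lower and 27 did not pass, 46% against 41.3% of all genes (21.4% higher and 19.9% lower), with a median of 0.004 against 0.006. In KO_BMM against flox_BMM, 20 were higher, 10 lower and 20 did not pass, 60% against 39.9% of all genes (19.3% higher and 20.6% lower), with a median of 0.08 against 0.001. Changes of at least 2-fold were called for Slc7a11 and Bcat1 in OC and for Glul and Bcat1 in BMM, all of them falls. That is 4% of the list in each, against 4.22% and 4.21% of all genes in either direction. Of all 13030 genes tested, 355 fell and 195 rose at least 2-fold in OC, and 432 fell and 116 rose in BMM. The libraries did not overlap for 35 of the 50 genes in OC, against 51.3% of all genes tested, and for 29 of the 50 in BMM, against 46.6%. The list was expressed above the average gene, with a median of 69.2 CPM against 26.1 for all genes tested, and 36 of the 50 lay above that. The part of this higher level in the shares called was not tested. With scaling by library size alone, 59.9% of all genes called in BMM were higher in KO, against 48.3%, and the list had 22 higher and 7 lower.

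**Figure D1:**
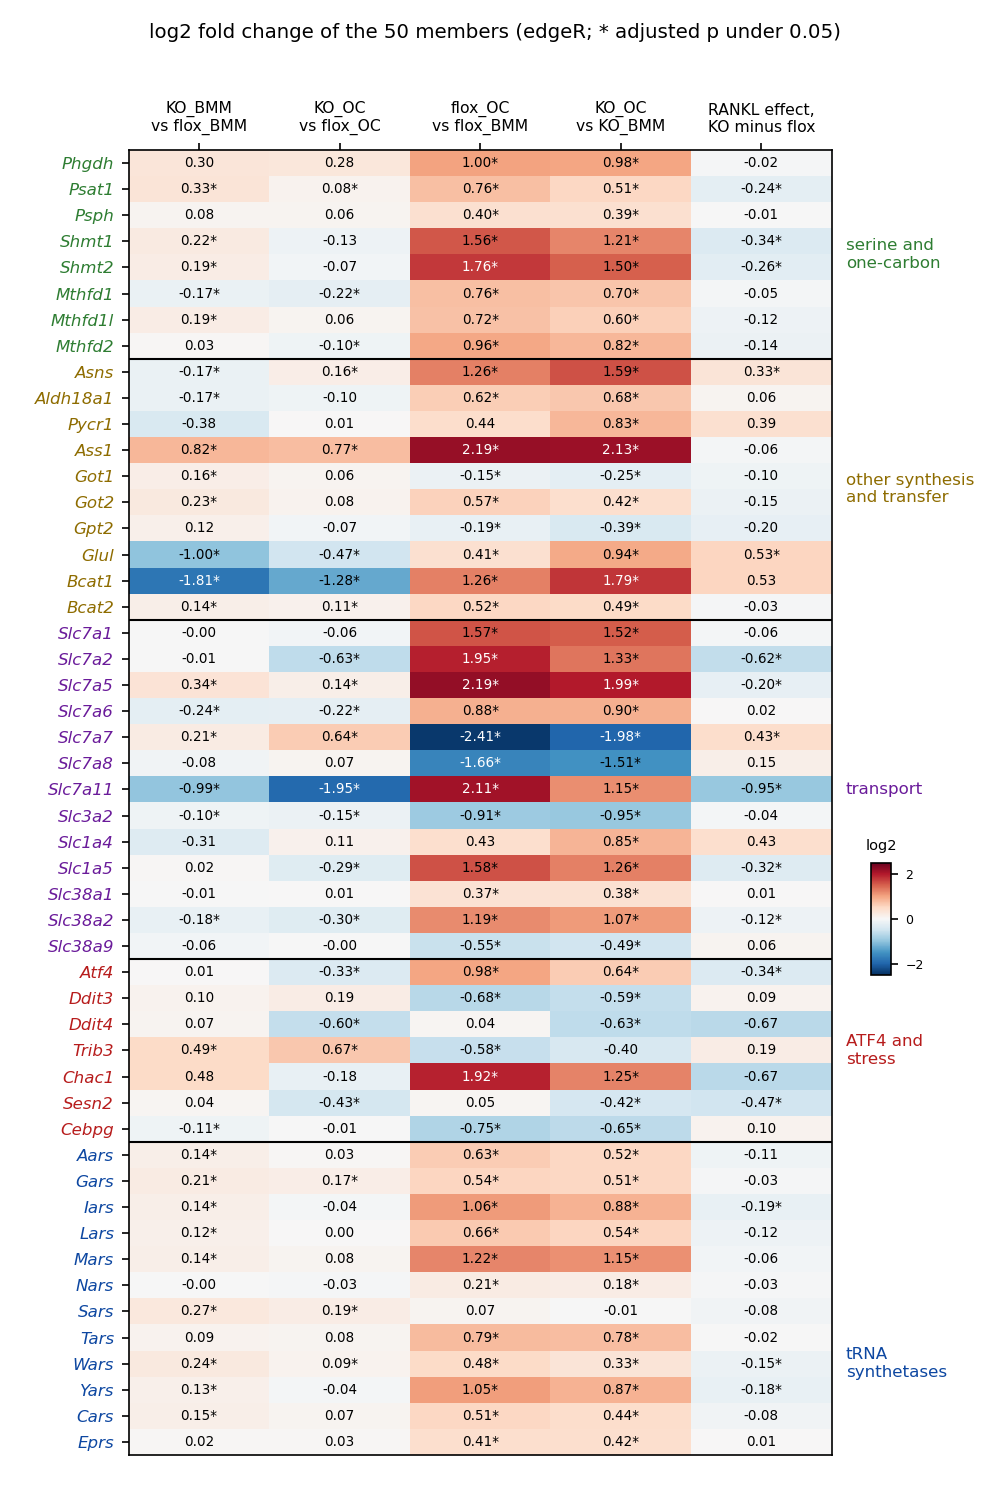
Each cell gives a gene's log2 fold change from edgeR in 1 of 5 comparisons (red higher, blue lower, asterisk for an adjusted p under 0.05), with the 50 genes grouped by role. The RANKL columns are mostly red, with Slc7a7 the lowest at -2.41 in flox and -1.98 in KO cells, and under library size alone the signs of Got1 in flox and Sars in KO cells turned.

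Atf4 and its stress targets split under RANKL. Atf4 (ENSMUSG00000042406, chromosome 15, 80255184 to 80257540, plus strand, GRCm38) stood at 132.3, 143.9 and 137.2 CPM in KO_OC, 176.7, 167.8 and 176.1 in flox_OC, 91.66, 86.65 and 87.59 in KO_BMM and 86.54, 87.46 and 90.53 in flox_BMM. Every OC library lay above every BMM library, KO_OC lay below flox_OC, and the BMM groups overlapped. RANKL raised Atf4 by 0.64 in KO cells (SE 0.036, edgeR adjusted p = 2.29e-21) and by 0.98 in flox cells (SE 0.035, edgeR adjusted p = 3.79e-29) on the log2 scale. By genotype it was 0.33 lower in KO_OC (-0.33, SE 0.033, edgeR adjusted p = 7.62e-12) and differed by 0.01 in BMM (edgeR adjusted p = 0.914). Chac1, which encodes a glutathione-degrading enzyme, was scarce, with 0.871, 0.989 and 0.903 CPM in KO_OC, 1.04, 1.09 and 1.02 in flox_OC, 0.326, 0.433 and 0.388 in KO_BMM and 0.340, 0.309 and 0.168 in flox_BMM. These are 55, 66, 23 and 15 reads per group, and the OC libraries lay above all BMM libraries. It rose with RANKL by 1.25 in KO cells (SE 0.32, edgeR adjusted p = 0.00068) and by 1.92 in flox cells (SE 0.35, edgeR adjusted p = 3.06e-06), and neither genotype difference passed.

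Several partners and stress genes fell with RANKL where Atf4 and Chac1 rose. Cebpg, a C/EBP partner of ATF4, averaged 52.7 ± 1.79 CPM in KO_OC, 53.2 ± 0.434 in flox_OC, 82.9 ± 1.98 in KO_BMM and 89.5 ± 6.93 in flox_BMM (SD, n = 3 each). Its RANKL change was -0.65 in KO and -0.75 in flox cells (edgeR adjusted p = 2.29e-18 and 7.18e-21). Ddit3, which encodes the pro-apoptotic factor CHOP, changed by -0.59 and -0.68 (edgeR adjusted p = 2.88e-08 and 2.41e-09), and 4.73% of its exonic bases lie in Mars or Gm4189, which unstranded counts cannot tell apart. Sesn2, an inhibitor of mTORC1 signalling, fell with RANKL in KO cells (-0.42, SE 0.066, edgeR adjusted p = 2e-07), while its change in flox cells was 0.05 (SE 0.063, edgeR adjusted p = 0.497). Under library size alone that flox change passed at 0.22. Sesn2 was also lower in KO_OC than in flox_OC (-0.43, SE 0.065, edgeR adjusted p = 3.61e-07), at 16.8 ± 0.642 against 22.6 ± 1.90 CPM. Ddit4, a stress-induced inhibitor of mTORC1, and Trib3, a pseudokinase that restrains ATF4, were counted with 65 to 136 reads per group. The RANKL change of Ddit4 was -0.63 in KO cells (edgeR adjusted p = 0.0115) and 0.04 in flox cells (edgeR adjusted p = 0.86), and the KO call was lost without KO_BMM library 2 or KO_OC library 3 (-0.50 to -0.45). That of Trib3 was -0.40 in KO (edgeR adjusted p = 0.052) and -0.58 in flox cells (edgeR adjusted p = 0.0175). The flox call was lost without flox_BMM library 2 or flox_OC library 2 (-0.55 to -0.47) and under library size alone (-0.42), and the KO change passed without any flox_BMM library or KO_OC library 3 (-0.52 to -0.41).

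All 8 genes of serine synthesis and folate-bound carbon transfer rose with RANKL in both genotypes, with medians of 0.76 in KO and 0.86 in flox cells. Over all genes tested, 35.5% rose in KO and 37% in flox cells. Shmt2, the mitochondrial enzyme that splits serine into glycine and a carbon unit (chromosome 10, 127517123 to 127522444, minus strand), stood at 239.1, 227.4 and 229.8 CPM in KO_OC, 249.8, 238.3 and 241.0 in flox_OC, 80.96, 83.09 and 81.73 in KO_BMM and 74.0, 73.45 and 67.75 in flox_BMM. OC and BMM libraries were far apart, KO_BMM lay above flox_BMM and the OC groups overlapped. It rose 2.83-fold in KO cells (log2 1.502, SE 0.034, edgeR adjusted p = 1.69e-37) and 3.39-fold in flox cells (log2 1.76, SE 0.035, edgeR adjusted p = 4.25e-40). Shmt1, its cytosolic counterpart, stood at 30.12, 29.88 and 28.89 CPM in KO_OC, 32.93, 31.9 and 32.25 in flox_OC, 12.43, 14.1 and 11.72 in KO_BMM and 10.83, 10.66 and 11.5 in flox_BMM. The 4 groups did not overlap, with flox_OC the highest. It rose 2.32-fold in KO cells (log2 1.21, SE 0.064, edgeR adjusted p = 3.11e-22) and 2.94-fold in flox cells (log2 1.56, SE 0.066, edgeR adjusted p = 3.64e-26). Smcr8 overlaps 4.74% of the exonic bases of Shmt1, which unstranded counts cannot tell apart.

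Phgdh, the first enzyme of serine synthesis, was near the limit of counting, with 85, 74, 43 and 32 reads in KO_OC, flox_OC, KO_BMM and flox_BMM. Its level was 1.49, 1.29 and 1.51 CPM in KO_OC, 0.902, 1.58 and 1.07 in flox_OC, 0.869, 0.626 and 0.678 in KO_BMM and 0.680, 0.412 and 0.673 in flox_BMM. OC libraries lay above BMM libraries of the same genotype, and the genotypes overlapped. The RANKL change was 0.98 in KO cells (SE 0.27, edgeR adjusted p = 0.00109) and 1.00 in flox cells (SE 0.30, edgeR adjusted p = 0.0023). As 47.8% of its 50-base words also occur in 20 other annotated genes, its count is uncertain. Psat1, the next enzyme, was abundant and rose by 0.51 in KO and 0.76 in flox cells, and Psph, the last, by 0.39 in KO and 0.40 in flox cells (edgeR adjusted p = 0.000131 and 0.000118). The folate enzyme genes Mthfd1, Mthfd1l and Mthfd2 rose by 0.60 to 0.82 in KO cells and by 0.72 to 0.96 in flox cells.

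The 10 synthesis and amino group transfer genes did not move as a block. Ass1, which makes argininosuccinate on the way from citrulline to arginine (chromosome 2, 31470207 to 31520672, plus strand), stood at 46.26, 45.17 and 43.99 CPM in KO_OC, 27.02, 27.21 and 25.33 in flox_OC, 9.665, 10.06 and 11.14 in KO_BMM and 5.671, 7.005 and 4.711 in flox_BMM. The groups were fully separated, and KO lay above flox in each condition. RANKL raised it 4.38-fold in KO cells (log2 2.13, SE 0.067, edgeR adjusted p = 2.16e-31) and 4.55-fold in flox cells (log2 2.19, SE 0.085, edgeR adjusted p = 9.7e-28). By genotype it was 1.701-fold higher in KO_OC (log2 0.77, SE 0.055, edgeR adjusted p = 2.02e-16) and 1.77-fold higher in KO_BMM (log2 0.82, SE 0.10, edgeR adjusted p = 6.15e-09). Of its 50-base words 38.6% also occur in 1 other annotated gene, so its level is uncertain.

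Asns, the asparagine synthetase gene (chromosome 6, 7675169 to 7693254, minus strand) and a classic ATF4 target, had 53.69, 53.97 and 54.68 CPM in KO_OC, 46.78, 50.02 and 48.42 in flox_OC, 17.38, 18.44 and 17.92 in KO_BMM and 21.15, 19.99 and 19.41 in flox_BMM. KO lay above flox in OC and below it in BMM, without overlap. It rose with RANKL 3.02-fold in KO cells (log2 1.59, SE 0.052, edgeR adjusted p = 6.69e-31) and 2.40-fold in flox cells (log2 1.26, SE 0.052, edgeR adjusted p = 9.47e-27). The genotype difference was 0.16 in OC (SE 0.043, edgeR adjusted p = 0.00182) and -0.17 in BMM (SE 0.063, edgeR adjusted p = 0.027). The BMM call was lost without flox_BMM library 1 or 2 or KO_BMM library 1 or 3, with changes of -0.17 to -0.13 and edgeR adjusted p of 0.0512 to 0.153.

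Glul and Bcat1 were lower in KO in both conditions. Glul, the glutamine synthetase gene (chromosome 1, 153899944 to 153909723, plus strand), stood at 402.7, 406.5 and 421.9 CPM in KO_OC, 559.2, 561.8 and 584.9 in flox_OC, 220.7, 208.4 and 210.8 in KO_BMM and 432.6, 428.0 and 423.2 in flox_BMM. KO_BMM was the lowest group, flox_OC the highest, and none overlapped. Of the 50-base words of Glul, 11.9% also occur in 3 other annotated genes, and 3.49% of its exonic bases lie in other genes, so part of its count is uncertain. The genotype difference was -0.47 in OC (SE 0.028, edgeR adjusted p = 2.03e-19) and -1.005 in BMM (SE 0.029, edgeR adjusted p = 2.82e-31), and RANKL raised Glul by 0.94 in KO and 0.41 in flox cells (edgeR adjusted p = 1.17e-31 and 3.23e-18). Bcat1, a cytosolic transaminase of leucine, isoleucine and valine, was scarce at 1.38, 1.39 and 1.25 CPM in KO_OC, 3.20, 3.16 and 3.46 in flox_OC, 0.272, 0.529 and 0.339 in KO_BMM and 1.19, 1.494 and 1.402 in flox_BMM. KO lay below flox in each condition, and KO_OC overlapped flox_BMM. It fell with genotype by 1.28 in OC (SE 0.18, edgeR adjusted p = 4.55e-08) and by 1.81 in BMM (SE 0.30, edgeR adjusted p = 2.02e-06) on the log2 scale, on 80 against 206 reads in OC and 23 against 75 in BMM. Its mitochondrial counterpart Bcat2 changed by 0.49 with RANKL in KO cells and by 0.52 in flox cells. Another gene model covers 15.95% of the exonic bases of Bcat2, which unstranded counts cannot tell apart. The stromal and osteoblast, megakaryocyte and neutrophil markers were also lower in KO in each condition, as given above, and their part in the falls of Glul and Bcat1 was not tested.

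Of the remaining synthesis genes, the proline pathway gene Aldh18a1 rose with RANKL by 0.68 in KO and 0.62 in flox cells, and Got2, a mitochondrial aspartate transaminase gene, by 0.42 and 0.57. As 16.8% of the 50-base words of Got2 also occur in 1 other annotated gene, part of its count is uncertain. The cytosolic transaminase gene Got1 and the alanine transaminase gene Gpt2 were slightly lower with RANKL in KO cells (-0.25 and -0.39, edgeR adjusted p = 1.87e-06 and 1.25e-06). In flox cells they changed by -0.15 and -0.19 (edgeR adjusted p = 0.00257 and 0.0092), and under library size alone by 0.02 and -0.03, neither of which passed. The Got1 call in flox cells was also lost without flox_BMM library 1 (-0.09, edgeR adjusted p = 0.0715). Pycr1, a proline synthesis gene with 51 to 95 reads per group, changed by 0.83 in KO (edgeR adjusted p = 0.00515) and 0.44 in flox cells (edgeR adjusted p = 0.114), and the flox change passed without flox_OC library 1 (0.60).

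Among the 13 transporters, 9 rose and 4 fell with RANKL in KO cells, and 8 rose and 4 fell in flox cells. The 4 that fell in each were Slc3a2, Slc7a7, Slc7a8 and Slc38a9. Over all genes tested, 35.5% rose and 35% fell in KO cells, and 37% rose and 37.8% fell in flox cells. The share of transporters that fell was thus no larger than that of all genes. Slc3a2 encodes the heavy chain that carries the light chains Slc7a5, Slc7a6, Slc7a7, Slc7a8 and Slc7a11 to the cell surface. Slc7a8, a neutral amino acid exchanger (chromosome 14, 54722216 to 54781886, minus strand), had 381.3, 361.9 and 372.1 CPM in KO_OC, 354.6, 357.7 and 349.0 in flox_OC, 1030, 1071 and 1066 in KO_BMM and 1202, 1128 and 1022 in flox_BMM. It was far lower in every OC library, and the BMM groups overlapped. RANKL lowered it 2.84-fold in KO cells (log2 -1.51, SE 0.042, edgeR adjusted p = 5.07e-17) and 3.16-fold in flox cells (log2 -1.66, SE 0.042, edgeR adjusted p = 8.48e-18). Slc7a7, which exports cationic amino acids (chromosome 14, 54369444 to 54409472, minus strand), had 24.33, 23.7 and 23.73 CPM in KO_OC, 14.84, 15.9 and 15.3 in flox_OC, 97.2, 88.96 and 97.91 in KO_BMM and 87.73, 84.01 and 73.48 in flox_BMM. KO lay above flox in each condition with no overlap. RANKL lowered it 3.96-fold in KO cells (log2 -1.98, SE 0.055, edgeR adjusted p = 2.77e-26) and 5.33-fold in flox cells (log2 -2.41, SE 0.061, edgeR adjusted p = 1.26e-27). The KO against flox difference was 0.64 in OC (edgeR adjusted p = 1.13e-08) and 0.21 in BMM (edgeR adjusted p = 0.000293). Oxa1l overlaps 10.6% of its exonic sequence, and unstranded counts cannot tell them apart. Of the macrophage markers 10 of 10 fell with RANKL in each genotype, and their part in the falls of Slc7a7 and Slc7a8 was not tested.

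Slc7a5, the large neutral amino acid carrier of growing cells (chromosome 8, 121881150 to 121907694, minus strand), moved the other way. It had 159.3, 153.3 and 159.5 CPM in KO_OC, 141.9, 141.2 and 146.0 in flox_OC, 41.76, 36.68 and 40.94 in KO_BMM and 34.14, 30.65 and 29.39 in flox_BMM. KO lay above flox in each condition, and OC lay far above BMM. RANKL raised it 3.96-fold in KO cells (log2 1.99, SE 0.042, edgeR adjusted p = 2.53e-38) and 4.56-fold in flox cells (log2 2.19, SE 0.045, edgeR adjusted p = 4.06e-39). The KO against flox difference was 0.14 in OC (edgeR adjusted p = 0.00128) and 0.34 in BMM (edgeR adjusted p = 6.92e-07). The heavy chain gene Slc3a2 averaged 267 ± 2.09 CPM in KO_OC, 296 ± 3.99 in flox_OC, 516 ± 1.89 in KO_BMM and 555 ± 33.1 in flox_BMM, and was 1.93-fold lower with RANKL in KO and 1.87-fold lower in flox cells (edgeR adjusted p = 8.41e-31 and 2.86e-30).

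Per length, as CPM over exonic length in kilobases (RPKM), the 5 light chain genes summed to 157 ± 3.40 in KO_OC, 149 ± 0.463 in flox_OC, 323 ± 4.43 in KO_BMM and 331 ± 26.9 in flox_BMM (SD, n = 3 each). Their sum over the Slc3a2 level was 1.74 ± 0.051 in KO_OC, 1.49 ± 0.015 in flox_OC, 1.85 ± 0.022 in KO_BMM and 1.77 ± 0.058 in flox_BMM. Both the sum and Slc3a2 were thus lower in OC, and their ratio varied less than either. Slc7a8 made up 58.5% of the summed light chain level in KO_OC, 59.0% in flox_OC, 81.1% in KO_BMM and 83.7% in flox_BMM. Slc7a5 made up 26.9%, 26.0%, 3.32% and 2.56% in the same order of groups. Slc7a11 made up 0.364% in KO_OC and 1.49% in flox_OC, and Slc7a7 7.09% and 4.82%. These ratios were chosen after the values were seen and carry no test.

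**Figure D2:**
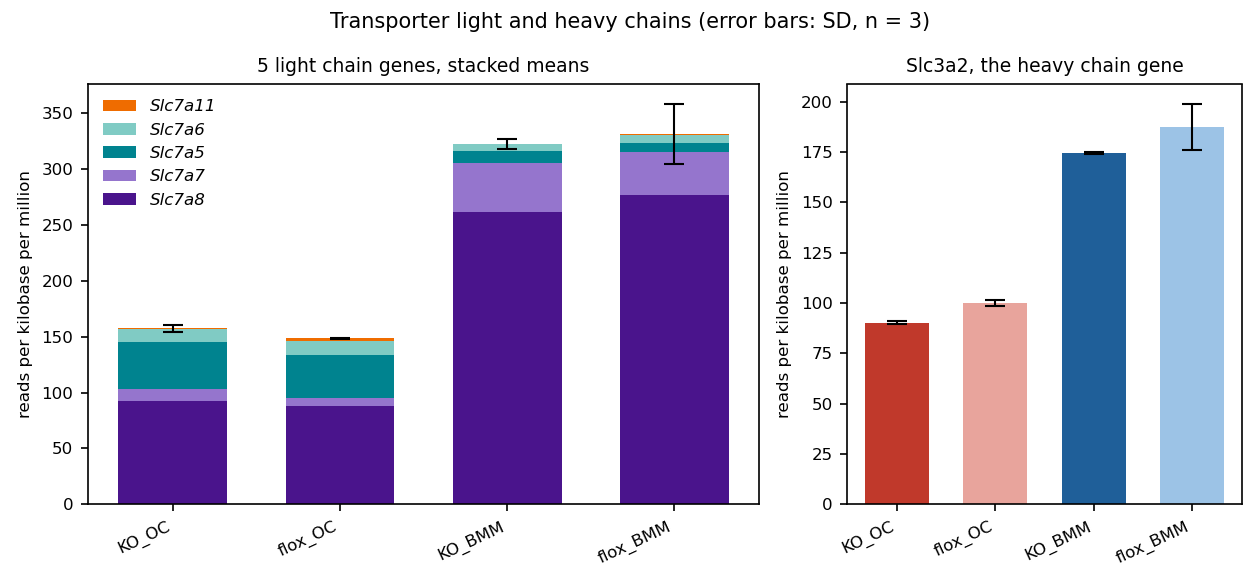
Stacked bars give mean RPKM of 5 light chain genes by group, and single bars the heavy chain gene Slc3a2 (error bars SD, n = 3). The BMM stacks, near 323 in KO and 331 in flox, are mostly Slc7a8, while the OC stacks, near 157 and 149, hold a large Slc7a5 share.

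Slc7a11, the cystine-glutamate exchanger xCT that supplies cysteine for glutathione (chromosome 3, 50364936 to 50443613, minus strand), showed the largest fall of the list by genotype in OC. It had 6.967, 6.332 and 6.019 CPM in KO_OC, 25.31, 24.99 and 24.16 in flox_OC, 2.878, 3.033 and 2.761 in KO_BMM and 6.181, 5.305 and 5.833 in flox_BMM. The flox_OC libraries stood far above all others, KO_BMM was the lowest group, and KO_OC overlapped flox_BMM. Slc7a11 was 3.85-fold lower in KO_OC (log2 -1.95, SE 0.077, edgeR adjusted p = 3.14e-26) and 1.99-fold lower in KO_BMM (log2 -0.99, SE 0.13, edgeR adjusted p = 1.03e-08). RANKL raised it 2.22-fold in KO cells (log2 1.15, SE 0.12, edgeR adjusted p = 1.38e-11) and 4.31-fold in flox cells (log2 2.11, SE 0.081, edgeR adjusted p = 5.1e-28). Osteoclast, stromal, megakaryocyte and neutrophil markers were lower in KO_OC as well, by their summed levels above, and their part in the fall of Slc7a11 was not tested.

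Slc7a1, Slc7a2, Slc1a5 and Slc38a2 rose with RANKL, while other carriers fell, Slc7a8 above and Slc38a7 and Slc66a1 below among them. Slc7a1, the constitutive cationic amino acid carrier, had 188.8, 174.7 and 185.6 CPM in KO_OC, 189.9, 191.7 and 191.0 in flox_OC, 62.34, 66.09 and 63.51 in KO_BMM and 71.45, 62.33 and 58.84 in flox_BMM. OC lay far above BMM, and the BMM groups overlapped. It rose 2.86-fold in KO cells (log2 1.52, SE 0.044, edgeR adjusted p = 9.33e-24) and 2.98-fold in flox cells (log2 1.57, SE 0.044, edgeR adjusted p = 3.06e-24), and neither genotype difference passed (-0.06 in OC and -0.003 in BMM, edgeR adjusted p = 0.224 and 0.969). Slc7a2, the inducible carrier of the same substrates in macrophages (chromosome 8, 40862396 to 40922308, plus strand), had 71.57, 68.62 and 69.37 CPM in KO_OC, 105.7, 109.9 and 108.0 in flox_OC, 26.88, 28.69 and 27.66 in KO_BMM and 28.13, 27.35 and 28.38 in flox_BMM. The BMM groups overlapped and the OC groups did not. It was lower in KO_OC (-0.63, SE 0.036, edgeR adjusted p = 4.7e-20), differed by -0.01 in BMM (SE 0.053, edgeR adjusted p = 0.918), and rose with RANKL by 1.33 in KO and 1.95 in flox cells (edgeR adjusted p = 1.99e-30 and 2.64e-38). Gm26584 overlaps 6.95% of the exonic bases of Slc7a2, which unstranded counts cannot tell apart.

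Slc1a5, a glutamine and neutral amino acid exchanger, had 154.0, 150.1 and 156.0 CPM in KO_OC, 190.2, 190.3 and 183.8 in flox_OC, 63.31, 63.3 and 64.92 in KO_BMM and 65.55, 63.92 and 58.95 in flox_BMM. As for Slc7a2, the genotypes were apart in OC and overlapped in BMM. The genotype difference was -0.29 in OC (SE 0.032, edgeR adjusted p = 8.19e-11) and 0.02 in BMM (SE 0.041, edgeR adjusted p = 0.689), and the RANKL change 1.26 in KO and 1.58 in flox cells (edgeR adjusted p = 3.36e-33 and 1.64e-37). Slc38a2, a sodium-coupled carrier of small neutral amino acids that ATF4 induces, had 299.0, 300.2 and 298.3 CPM in KO_OC, 366.0, 373.2 and 364.5 in flox_OC, 142.3, 140.2 and 146.0 in KO_BMM and 163.5, 160.0 and 161.1 in flox_BMM. KO lay below flox in each condition. The genotype difference was -0.30 in OC and -0.18 in BMM (edgeR adjusted p = 3.69e-13 and 3.47e-06), and the RANKL change 1.07 in KO and 1.19 in flox cells (edgeR adjusted p = 3.38e-34 and 1.45e-36). Slc38a1 rose with RANKL by 0.38 in KO and 0.37 in flox cells, and Slc7a6 by 0.90 and 0.88. Slc38a9, a lysosomal arginine sensor, changed by -0.49 and -0.55. Slc1a4, with 42 to 76 reads per group, changed by 0.85 in KO and 0.43 in flox cells, and its KO call was lost without KO_BMM library 3 or KO_OC library 3 (0.71 to 0.72), while the flox change passed without flox_OC library 1 (0.69).

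Of the 12 cytosolic tRNA synthetases, which charge tRNAs with their amino acids, 11 rose with RANKL in KO cells and 11 in flox cells (medians of all 12 were 0.52 in KO and 0.58 in flox cells). The shares of all genes that rose were 35.5% in KO and 37% in flox cells. Mars, for methionine, had 132.5, 129.5 and 136.8 CPM in KO_OC, 123.8, 126.3 and 128.1 in flox_OC, 61.14, 57.48 and 60.94 in KO_BMM and 56.25, 52.59 and 54.01 in flox_BMM. Iars, for isoleucine, had 222.5, 223.0 and 224.8 CPM in KO_OC, 224.0, 237.9 and 229.7 in flox_OC, 116.7, 126.7 and 121.2 in KO_BMM and 117.4, 112.2 and 101.3 in flox_BMM. Of the 50-base words of Iars, 7.15% also occur in 1 other annotated gene, so part of its count is uncertain. Yars, for tyrosine, had 81.5, 80.24 and 83.67 CPM in KO_OC, 85.04, 84.79 and 83.31 in flox_OC, 44.69, 43.18 and 46.02 in KO_BMM and 43.1, 41.05 and 37.8 in flox_BMM. OC libraries of all 3 genes lay far above BMM libraries, and genotypes lay close together. Mars rose by 1.15 in KO and 1.22 in flox cells, Iars by 0.88 and 1.06, and Yars by 0.87 and 1.05 (largest edgeR adjusted p of the 6 tests = 2.78e-22, for Iars in KO cells). The exception was Sars, for serine, at 152.5 ± 0.586 CPM in KO_OC, 134 ± 4.12 in flox_OC, 154 ± 2.44 in KO_BMM and 128 ± 3.19 in flox_BMM. Its RANKL change was -0.01 in KO cells (edgeR adjusted p = 0.694) and 0.07 in flox cells (edgeR adjusted p = 0.0508), and 0.12 and 0.24 under library size alone, both of which passed. The flox change passed without flox_BMM library 1 or flox_OC library 2 (0.09 each).

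**Figure D3:**
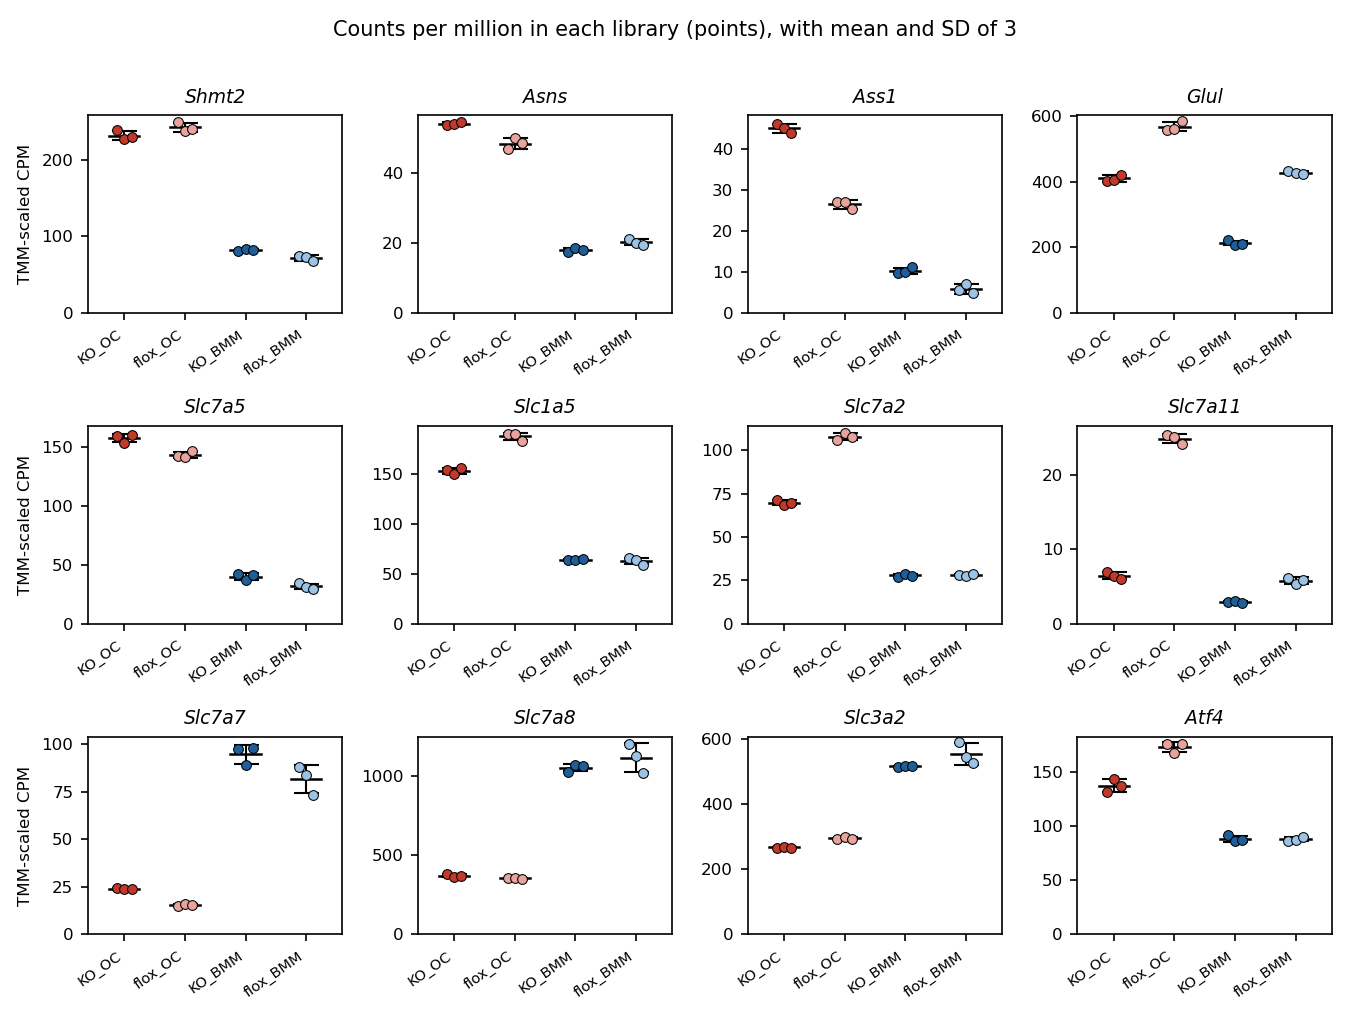
Points are TMM-scaled CPM in each library for 12 genes, with mean and SD of 3, on linear axes that start at 0. Slc7a5 and Shmt2 are high in OC, Slc7a7, Slc7a8 and Slc3a2 are high in BMM, and Slc7a11, Slc7a2 and Atf4 are highest in flox_OC.

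Small genotype differences made up most of the genotype calls. Higher in KO in both conditions were 9 genes (Psat1, Ass1, Bcat2, Slc7a5, Slc7a7, Trib3, Gars, Sars and Wars), and lower in both were 7 (Mthfd1, Glul, Bcat1, Slc7a6, Slc7a11, Slc3a2 and Slc38a2). These are 18% and 14% of the list, against 11% and 10.8% of all genes. The comparisons by genotype in OC and BMM set different libraries against each other, but took their spread from 1 fit of all 12. Asns was the 1 gene called in opposite directions. The tRNA synthetases were higher in KO_BMM for 9 of 12 and lower for 0, against 19.3% and 20.6% of all genes. In KO_OC they were higher for 3 and lower for 0, which is 25% called against 41.3% of all genes, with 21.4% of all genes higher, so these 3 are no result about the synthetases. The genotype differences of these 12 reached 0.27 on the log2 scale, for Sars in BMM. Of the calls in OC, 6 of 10 higher and 11 of 13 lower held whichever library was left out, and of those in BMM 13 of 20 and 6 of 10. In OC the calls lost were Psat1 (0.06 to 0.08 without flox_BMM 2, KO_BMM 2, any flox_OC library, KO_OC 1 or KO_OC 3), Mthfd2 (-0.10 to -0.07 without flox_OC 1, flox_OC 3 or KO_OC 2) and Bcat2 (0.09 to 0.10 without flox_OC 3 or KO_OC 2). They were also Ddit4 (-0.62 to -0.42 without flox_OC 1 or 3 or KO_OC 1 or 3), Trib3 (0.55 to 0.56 without flox_OC 2 or KO_OC 3) and Wars (0.08 to 0.09 without flox_OC 1 or 2 or KO_OC 2 or 3). In BMM, Trib3 lost its call without any 1 of the 6 BMM libraries (0.45 to 0.53), Shmt1 without flox_BMM 1 or 2 or KO_BMM 2 (0.13 to 0.21), and Aldh18a1 without flox_BMM 1 or KO_BMM 1 or 3 (-0.16 to -0.09). Cebpg lost its call without flox_BMM 3 or KO_BMM 1 or 2 (-0.11 to -0.04), Slc3a2 without flox_BMM 1 (-0.05) and Bcat2 and Lars without KO_BMM 3 (0.12 and 0.10). Iars and Yars lost theirs without flox_BMM 3 (0.09 each), Yars also without KO_BMM 3 (0.11), and Cars without KO_BMM 1 or 2 (0.12 and 0.13). Slc7a8 passed without flox_BMM 3 (-0.14) and Tars without flox_BMM 1 (0.14). In OC, Shmt1, Shmt2, Aldh18a1, Got2, Slc7a8, Mars and Cars each passed without some single library, at changes of -0.13 to 0.12.

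The RANKL effect differed between genotypes for 16 of the 50 genes, 32% against 21.9% of all genes (12.3% higher and 9.53% lower). With scaling by library size alone 43.3% of all differences called were higher, against 56.4%, and the list had 3 higher and 19 lower. The RANKL effect was weaker or more negative in KO cells for 13 and higher for 3, and the median difference was -0.06 against 0.01 over all genes. Among the 13, Psat1, Slc7a5 and Wars were called higher in KO in both conditions, and Shmt1, Shmt2, Iars and Yars in BMM only. Slc7a2, Slc1a5, Atf4 and Sesn2 were called lower in KO in OC only, and Slc7a11 and Slc38a2 in both conditions. Slc7a11 had the largest difference, with a RANKL effect of 1.15 in KO and 2.11 in flox cells (difference -0.95, SE 0.16, edgeR adjusted p = 6.3e-06). Slc7a2 followed with effects of 1.33 and 1.95 (difference -0.62, SE 0.064, edgeR adjusted p = 9.76e-11), then Sesn2 (-0.47, SE 0.091, edgeR adjusted p = 8.7e-05), Shmt1 (-0.34, SE 0.096, edgeR adjusted p = 0.0066), Atf4 (-0.34, SE 0.050, edgeR adjusted p = 6.7e-07) and Slc1a5 (-0.32, SE 0.052, edgeR adjusted p = 3.95e-06). The 3 higher differences were Glul (0.53, SE 0.041, edgeR adjusted p = 1.05e-14), Slc7a7 (0.43, SE 0.088, edgeR adjusted p = 0.000359) and Asns (0.33, SE 0.076, edgeR adjusted p = 0.000834). Glul and Asns gained more in KO cells, and Slc7a7 lost less. Without flox_BMM library 1 the number of lower differences was 20, and over all single libraries left out it was 9 to 20. The calls for Shmt1 (-0.26 without KO_BMM 2), Slc7a5 (-0.19 to -0.17 without flox_BMM 2 or 3 or KO_BMM 1 or 3), Slc38a2 (-0.12 to -0.11 without KO_BMM 3, flox_OC 2 or KO_OC 3), Wars (-0.15 to -0.14 without KO_BMM 3, flox_OC 3 or KO_OC 1) and Yars (-0.17 to -0.14 without flox_BMM 3, KO_BMM 3, flox_OC 1 or KO_OC 2) did not hold throughout. Passing without flox_BMM 1 were Mthfd1l (-0.16), Got1 (-0.17), Got2 (-0.26), Slc7a1 (-0.15), Slc3a2 (-0.11), Aars (-0.17) and Lars (also without flox_BMM 3, KO_BMM 2 or flox_OC 1, -0.15 to -0.14), and without flox_BMM 3 Slc7a8 (0.20). The osteoclast markers moved as well, with a median RANKL change of 0.94 in KO and 1.89 in flox cells over 8 tested and 4 of 8 differences called lower. Of the macrophage markers 8 of 10 differences were higher and 1 lower, with a median of 0.32. The part of either list in these differences was not tested.

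**Figure D4:**
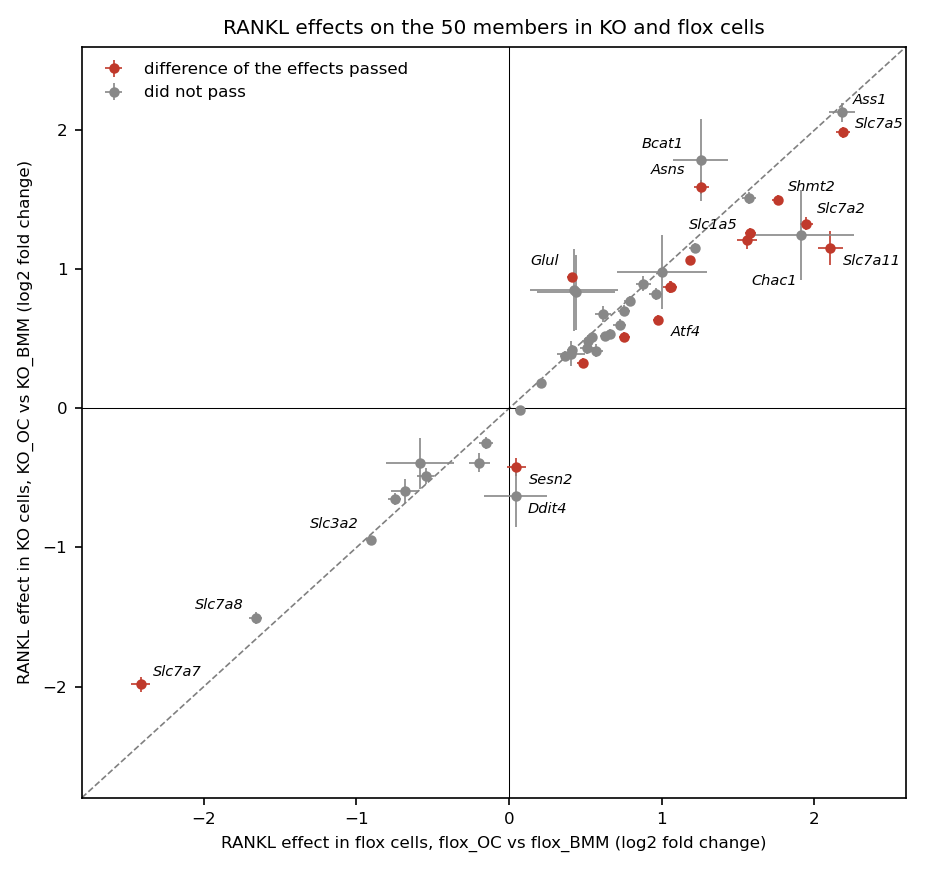
Each point is 1 of the 50 genes, with its RANKL log2 fold change in KO cells (vertical) against that in flox cells (horizontal), SE bars, and the line of equal effects dashed. Slc7a11, Slc7a2 and Atf4 lie below the line and Glul and Asns above it. The 2 axes compare different libraries, and the SE come from 1 fit of all 12.

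Other genes of the same pathways, from lists kept apart from the 50, were read beside them, with 70.5% of all genes called for RANKL in KO and 74.8% in flox cells. All 8 other cytosolic tRNA synthetases rose with RANKL in both genotypes (medians 0.52 in KO and 0.69 in flox cells), led by Vars at 1.02 and 1.12, and 15 of 17 mitochondrial ones rose in each (medians 0.32 and 0.43), led by Mars2 at 1.21 and 1.39. Among 12 other folate and glycine genes, 7 rose and 2 fell in each genotype. Gcsh, a subunit of the glycine cleavage system, rose by 1.71 in KO and 1.78 in flox cells, and the folate carrier gene Slc19a1 by 1.53 and 1.81, while Aldh1l1, a cytosolic folate dehydrogenase gene, changed by -1.09 and -1.68. Of 9 genes of glutamine, proline and arginine use, 6 rose and 2 fell in KO cells and 6 rose and 1 fell in flox cells. Odc1, which commits ornithine to polyamines, rose by 1.99 and 1.74. Of 9 tested other amino acid transporters, 1 rose with RANKL and 8 fell in KO cells, and 1 rose and 7 fell in flox cells. Slc38a7, a lysosomal glutamine carrier gene, changed by -0.73 in KO and -0.83 in flox cells. The lysosomal carriers Slc15a3 (-1.76 in KO, -1.92 in flox cells), Slc36a1 (-1.36 and -1.33) and Slc66a1 (-1.25 and -1.21) also fell.

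Of the 9 ER chaperone genes of the unfolded protein response, 9 fell with RANKL in KO cells and 8 in flox cells, and 0 rose (medians -0.42 and -0.49). Hspa5, the main ER chaperone gene, averaged 645 ± 13.3 CPM in KO_OC, 539 ± 12.8 in flox_OC, 864.5 ± 6.88 in KO_BMM and 876 ± 33.2 in flox_BMM. Among 7 genes of the eIF2 kinases and phosphatase, 5 rose and 0 fell in KO cells, and 4 rose and 2 fell in flox cells. Ppp1r15a, the stress-induced phosphatase subunit, rose by 0.57 in KO and 0.93 in flox cells, and Eif2ak4, the GCN2 gene, by 0.20 and 0.19. Of 11 tested other ATF4-linked genes, 8 rose and 3 fell in KO cells, and 4 rose and 3 fell in flox cells. The 63.6% called in flox cells lay below the 74.8% of all genes. Jdp2, a bZIP factor gene of osteoclast formation, averaged 56.8 ± 2.47 CPM in KO_OC, 163 ± 3.77 in flox_OC, 10.7 ± 0.195 in KO_BMM and 9.99 ± 1.26 in flox_BMM. It rose by 2.40 in KO and 4.02 in flox cells (difference -1.62, SE 0.095, edgeR adjusted p = 1.88e-18). Nupr1, a stress-induced chromatin protein gene, went the other way, at 7.37 ± 0.921 CPM in KO_OC, 4.40 ± 0.131 in flox_OC, 3.36 ± 0.424 in KO_BMM and 4.52 ± 0.308 in flox_BMM, with a difference of RANKL effects of 1.16 (edgeR adjusted p = 1.61e-06). Over the 11 genes 4 differences were higher and 3 lower, where 12.3% of all genes were higher and 9.53% lower. Vldlr, a lipoprotein receptor gene, was scarce and was 1.504 higher in KO_OC on the log2 scale (edgeR adjusted p = 2.89e-06), on 119 against 44 reads. Atf3, a bZIP stress factor gene, fell by 1.78 in KO and 2.09 in flox cells, and Gdf15, a stress-induced cytokine gene, fell by 2.29 and 1.65 on the log2 scale and was 1.02 higher in KO_BMM than in flox_BMM (edgeR adjusted p = 1.04e-10). By genotype, where 41.3% of all genes were called in OC and 39.9% in BMM, the other cytosolic synthetases had 2 higher and 6 lower in OC and 3 and 1 in BMM, the mitochondrial ones 2 and 3 in OC and 5 and 1 in BMM, and the other transporters 5 and 0 in OC and 6 and 1 in BMM. The ER chaperone genes had 4 higher and 0 lower in KO_OC and 1 and 2 in KO_BMM, the eIF2 genes 3 and 1 in OC and 1 and 0 in BMM, and the other ATF4-linked genes 4 and 1 in OC and 3 and 4 in BMM. The folate and glycine genes had 2 and 3 in OC and 3 and 1 in BMM, and those of glutamine, proline and arginine use 2 and 1 in each. The lower genes in both conditions included Mthfd2l of the folate list (-1.08 in OC and -1.01 in BMM, edgeR adjusted p = 1.44e-07 and 2.1e-07). They also included Odc1 (-0.36 in OC and -0.61 in BMM, edgeR adjusted p = 2.46e-10 and 4.32e-11). The shares called were below those of all genes for the mitochondrial synthetases and the glutamine, proline and arginine genes in both conditions, and for the eIF2, ER chaperone and folate genes in BMM. With few genes a list, these counts are descriptions.

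By summed level per length, the transporter genes were the largest group in BMM and the tRNA synthetases in OC. The 13 transporters summed to 403 to 411 RPKM in KO_OC, 434.5 to 441 in flox_OC, 572 to 582 in KO_BMM and 562 to 643 in flox_BMM. The 12 tRNA synthetases summed to 490.5 to 502.5 RPKM in KO_OC, 476 to 482 in flox_OC, 354 to 358 in KO_BMM and 322 to 335 in flox_BMM. The serine and folate genes summed to 215 to 226 RPKM in KO_OC, 227 to 234 in flox_OC, 109 to 113 in KO_BMM and 98.6 to 106 in flox_BMM. Of single genes, Slc7a8 had the highest RPKM of the list in BMM, at 262 in KO and 277 in flox cells, and Glul in OC, at 123.5 in KO and 171 in flox cells. Bcat1, Phgdh, Pycr1, Slc1a4, Chac1 and Ddit4 stayed under 1 RPKM in all 4 groups. In KO_OC, Glul was followed by Shmt2 at 100.7 RPKM, Slc7a8 at 92.2, Slc3a2 at 90.3 and Atf4 at 79.9, and in flox_OC by Shmt2 at 105, Atf4 at 101, Slc3a2 at 100.1 and Slc7a8 at 87.7.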

How the data were processed

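Raw counts of reads per gene were deposited by the authors for 12 libraries, with no normalization. The submitters' processing notes name STAR 2.0.4b and GRCm38, and reads were counted with featureCounts 1.4.5-p1 over Ensembl release 76 exons at strand setting 0, per the file headers, so strand was ignored. The exonic gene lengths used for RPKM were the deposited ones, per the file headers. Read filters were not described. Groups came from the titles, and symbols from a gene name table, which named 40254 of 41388 identifiers. The 1134 unnamed gene models held 0.136% of counts and stayed in the library sizes.

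edgeR 4.0.16 in R 4.3.3 fitted all 12 libraries with 4 group means, TMM factors, its default low-count filter and robust quasi-likelihood F tests for 13030 genes in 5 comparisons. Calls needed an adjusted p (Benjamini-Hochberg, over all 13030 genes) under 0.05. The SE was derived by dividing the absolute log2 change by the root of the F statistic, and levels are TMM-scaled CPM. The procedure was checked on simulated counts. Members with a called log2 change of at least 1, or a called difference of RANKL effects of at least 0.5, and Atf4 were given in every library. Of the other lists, up to 4 called genes with the largest change and at least 1 CPM were eligible to be named. Other genes named outside these rules were chosen after their values were seen. The members and lists were chosen with earlier results of these data known. Alternatives were other scalings, DESeq2 1.42.0, no filter, a replicate block, separate fits and leaving out each library. Sequence sharing was counted, in GENCODE transcripts, as 50-base words of the exons that occur in another gene. Floors cover counting error only.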

Additional observations from a re-analysis of the deposited data

Results flagged for a closer look

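For 16 genes the RANKL effect differed between KO and flox cells by edgeR's test of the difference (values are KO effect minus flox effect on the log2 scale). It was more positive in KO cells for Glul (0.53), Slc7a7 (0.43) and Asns (0.33). It was lower in KO cells for the transporter genes Slc7a11 (-0.95), Slc7a2 (-0.62), Slc1a5 (-0.32), Slc7a5 (-0.20) and Slc38a2 (-0.12), and for Sesn2 (-0.47) and Atf4 (-0.34). The serine pathway genes Shmt1 (-0.34), Shmt2 (-0.26) and Psat1 (-0.24), and the synthetase genes Iars (-0.19), Yars (-0.18) and Wars (-0.15), completed the set. The calls of Shmt1, Slc7a5, Slc38a2, Wars and Yars were lost in fits without some single library, whose values stand beside these genes in the results. No group had enough libraries to test for a single library apart from its group.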

How the results depend on the processing

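Over 250 pairs of gene and comparison, all from the 50 members, 4449 values were recomputed under the alternatives. Of these, 4281 stayed on their side of the threshold, 64 newly passed and 102 no longer passed. Changes of sign where neither fit passed are among the 4281 and were not counted apart. The other 2 turned direction where a fit had passed. Both turned under library size alone, Got1 with RANKL in flox cells (0.0172) and Sars with RANKL in KO cells (0.12). With the DESeq2 Wald test, 6 genes were higher in KO_OC than flox_OC, against 10. Leaving out 1 library gave 7 to 12 higher and 11 to 16 lower for KO_OC against flox_OC, 16 to 20 and 7 to 10 for KO_BMM against flox_BMM, 37 to 38 and 9 to 11 for RANKL in KO, 36 to 38 and 8 to 9 in flox, and 3 to 4 higher and 9 to 20 lower differences of RANKL effects. The highest, 20, came without flox_BMM replicate 1. With the replicate block the counts were 9 and 13 in OC, 20 and 10 in BMM, 38 and 10 for RANKL in KO, 36 and 9 in flox and 4 and 13 for the difference. The numbers did not pair the libraries: 18 same-number pairs correlated at -0.067 to 0.084, other pairs at -0.15 to 0.14, and 4 of 12 libraries lay closest to their own number. Calls for genes of the other pathway lists were not checked under the alternatives. Depth limits the 7 members with under 100 reads in some group. The cause of these changes was not tested.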
